A study of Mus musculus with 8 samples.

Results

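Genes of the endoplasmic reticulum folding machinery and of the unfolded protein response were examined in the ventricular heart of mouse embryos with a frameshift mutation in the gene of the transcription factor ATF4. The 35 genes were taken by symbol from a table of 52778 features and comprise 16 folding genes, 10 degradation genes, 5 translocon genes and 4 sensors. The sensor class counts the transcription factor Xbp1 together with the sensor genes Atf6, Atf6b and Ern1. Positions are those of whole genes in GRCm38, exons and introns together. The table lists Ero1l under its newer symbol Ero1a, and all other members were found under their own symbols. All 35 reached 1 TPM in at least 4 of the 8 libraries and were tested.

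Proteins bound for secretion or for membranes enter the endoplasmic reticulum through the Sec61 channel, fold there with the help of chaperones and disulfide-forming enzymes, and are pulled back to the cytosol for degradation when they fail. The unfolded protein response adjusts this machinery to the load: the membrane sensors IRE1 (Ern1), ATF6 and PERK detect misfolded protein, IRE1 splices the mRNA of the transcription factor XBP1, ATF6 is cut to release a transcription factor, and PERK slows translation while it raises the translation of ATF4. XBP1 and ATF6 drive most chaperone genes, whereas ATF4 is best known for genes of amino acid supply, redox balance and the CHOP pathway. In the embryonic heart the same machinery serves the production of matrix, receptors and channels during chamber growth.

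RNA from ventricular tissue at embryonic day 11.5 was sequenced in 4 control samples, labelled C57BL/6 WT, and in 4 samples of Atf4(del7/del7) embryos. The mutants carry on both alleles a 7-base CRISPR/Cas9 deletion in exon 3 that shifts the reading frame in every cell of the embryo, not in cardiomyocytes alone. No drug or stress was applied to either group. The genotype field of the mutant samples also reads C57BL/6 WT, so the groups rest on the titles, and whether each library came from 1 embryo or from a pool is not given. The tissue is a mixture, and in bulk RNA fewer cells of a type cannot be told apart from less RNA per cell.

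The libraries matched their label as heart: all 6 ventricular cardiomyocyte markers were present, with Myl2 between 10631 and 11979 TPM. All 4 atrial cardiomyocyte markers were present too, with Myl4 between 4005 and 4386 TPM, so the markers do not show that the tissue was ventricular alone. Of the 5 neuron markers, 2 averaged at least 1 TPM, Tubb3 at 8.84 and Stmn2 at 1.34 TPM. The 5 hepatocyte markers, Alb among them, each averaged under 1 TPM. Of the 4 secretory pancreas markers, Prss1 was listed at 0 in every library, Ins2 and Cel averaged under 1 TPM, and Cpa1 was present in every library at 2.41 to 4.63 TPM. Atf4 itself stood at 105, 121, 115 and 105 TPM in the controls and at 166, 164, 185 and 148 TPM in the mutants, a log2 fold change of 0.57 (SE 0.071, limma adjusted p of 0.0430). All 4 mutants lay above all 4 controls, but the adjusted p passed in only 3 of the 14 alternative analyses and ran from 0.0384 to 0.354 over them. The transcript level is therefore no check of the loss of the protein. TPM keeps no read depth, so the error used here comes from the spread among the 4 libraries within each genotype. In limma that spread is pooled over both genotypes and drawn toward the trend over all genes tested.

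Some members carry in their promoters the sequence through which ATF6 and XBP1 are known to act, and a few of these stretches are shown because that element is the known link between the sensors and chaperone genes. The endoplasmic reticulum stress element (ERSE) was searched as CCAAT, 9 bases of any kind, then CCACG, on both strands, in windows from 250 bases before to 50 bases after the start of each gene (RefSeq, GRCm38.p6). Windows were found for 30 members, all but Hyou1, Manf, Derl1, Sec61a1 and Atf6. The element occurred in 9 of these 30 (30.0%) and in 39 of all 32851 windows (0.119%). It was present in 7 of 14 folding genes (Hspa5, Hsp90b1, Calr, Canx, Pdia6, Dnajc3 and Creld2), in 2 of 9 degradation genes (Syvn1 and Derl3), and in none of the 4 translocon genes and 3 sensors searched, a count of 0 for both. The compact form ERSE-II (ATTGG, 1 base, CCACG) was found in Dnajb11 and Herpud1 and in 0.0365% of all windows. The core of the XBP1 site, TGACGTGG, was found in Vcp and in 0.676% of windows. A core of the element bound by ATF4 with C/EBP partners, TTGCATCA, was found in 1 member, Herpud1, and in 0.895% of windows. No motif shared bases with another in the members. The Hspa5 element, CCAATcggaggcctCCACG, lies on the plus strand at chr2:34772025-34772043, from -65 to -47 when the first transcribed base is 0. In the sequences that follow, read 5′ to 3′ along each gene, capitals mark the 2 arms of an ERSE (CGTGG and ATTGG where it lies on the opposite strand) or a whole shorter motif.

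Hsp90b1 (chr10:86705510-86705691, minus strand): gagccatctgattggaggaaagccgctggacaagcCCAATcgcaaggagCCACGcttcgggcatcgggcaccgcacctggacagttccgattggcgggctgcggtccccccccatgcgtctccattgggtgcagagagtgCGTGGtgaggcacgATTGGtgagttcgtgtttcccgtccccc
Pdia6 (chr12:17266456-17266544, plus strand): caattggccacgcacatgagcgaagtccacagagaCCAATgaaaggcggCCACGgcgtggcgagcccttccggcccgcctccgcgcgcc
Dnajc3 (chr14:118937792-118937880, plus strand): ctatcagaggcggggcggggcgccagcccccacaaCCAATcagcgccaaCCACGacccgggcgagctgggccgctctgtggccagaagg
Calr (chr8:84847040-84847128, minus strand): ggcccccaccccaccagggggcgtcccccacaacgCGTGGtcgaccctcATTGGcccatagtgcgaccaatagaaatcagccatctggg
Syvn1 (chr19:6046497-6046575, plus strand): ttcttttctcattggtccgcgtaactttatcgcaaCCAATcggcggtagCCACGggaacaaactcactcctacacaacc
Herpud1 (chr8:94386282-94386422, plus strand): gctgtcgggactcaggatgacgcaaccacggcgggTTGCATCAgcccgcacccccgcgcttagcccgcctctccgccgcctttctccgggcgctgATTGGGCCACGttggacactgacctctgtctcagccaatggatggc

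Hsp90b1 holds 2 such elements in opposite orientation. Herpud1 is the member with both an ERSE-II and the ATF4-type core, the latter at -112 to -105. Whether either motif bears on its level in these hearts was not tested.

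In level, the folding genes dominated the group. Summed over the 16 folding genes, expression was 4476 ± 208 TPM in control hearts and 4752 ± 156 TPM in mutant hearts (SD, n = 4 each), or 0.477% ± 0.0200 and 0.507% ± 0.0169 of all listed TPM. The 10 degradation genes summed to 620 ± 11.9 and 626 ± 20.6 TPM, of which Vcp held 386 ± 9.41 and 394 ± 14.8 TPM. The 5 translocon genes summed to 373 ± 11.6 and 377 ± 11.5 TPM and the 4 sensors to 138 ± 3.62 and 146 ± 9.13 TPM. TPM is scaled for transcript length, so these levels can be set side by side. Calr, Hsp90b1 and Hspa5 ranked 126, 152 and 156 among the 15545 genes tested, and the values of Hsp90b1 and Hspa5 overlapped each other. The span within a class was wide: folding genes ran from Calr at 836 ± 44.3 TPM in the controls down to Dnajb9 at 24.5 ± 1.17 TPM, and degradation genes from Vcp down to Derl3 at 1.46 ± 0.155 TPM. Derl2 and Edem1, at 14.2 ± 0.298 and 8.92 ± 0.499 TPM, were the next lowest.

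**Figure D1:**
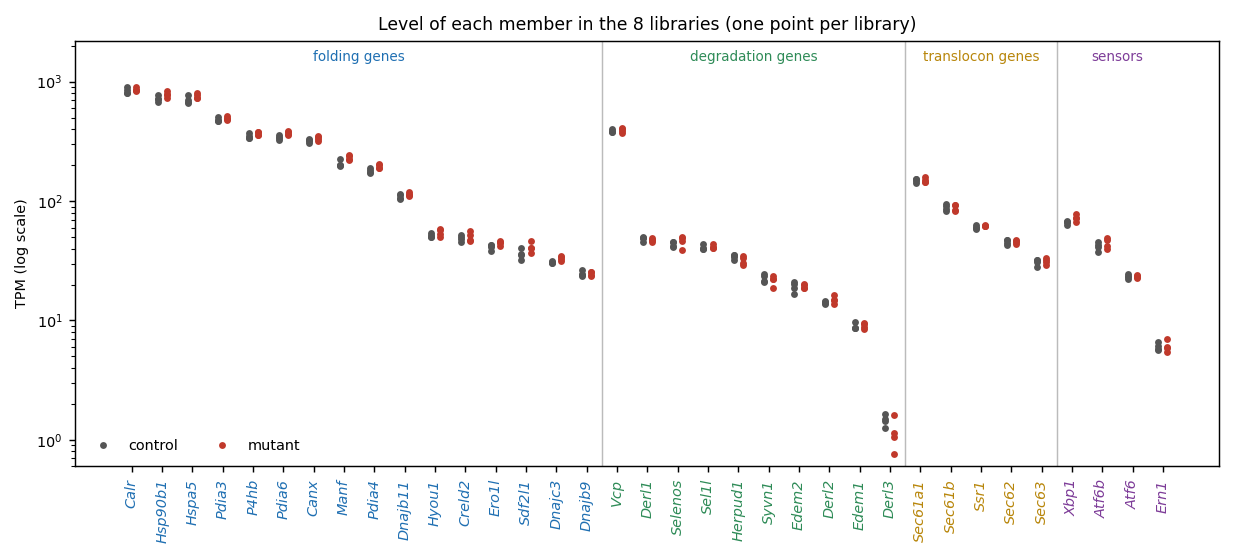
TPM on a log axis for the 35 members, ordered by mean level within each class, with one point per library (control and mutant, 4 each). Levels run from about 1 TPM for Derl3 to 836 TPM for Calr in the controls, and the points of the 2 groups overlap in every gene.

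No member passed the threshold between the genotypes. Of the 35 members 0 passed at an adjusted p of 0.05 in limma (Benjamini-Hochberg over 15545 genes), against 0.0386% of all genes tested, and the lowest adjusted p of a member was 0.748. At an unadjusted p below 0.05 there were 8 members, all with a higher mutant mean, which is 8 of 35 against 2.65% of all genes, and there were 0 with a lower mean against 3.45%. The 8 were 7 folding genes (Manf, Pdia6, Pdia4, Ero1l, Dnajc3, Sdf2l1 and Hsp90b1) and the factor Xbp1. All 16 folding genes had a log2 fold change above 0, as did 48.2% of all genes, with a median of 0.092 and a range from 0.0057 to 0.19. In contrast, 6 of 10 degradation genes (median 0.015), 4 of 5 translocon genes (median 0.017) and 3 of 4 sensors (median 0.042) lay above 0, and the median of all genes was -0.0033. The differences between the classes are descriptions of these counts and medians and were not tested. In 0 members were the groups free of overlap, against 1.63% of all genes for higher and 2.05% for lower mutant values.

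**Figure D2:**
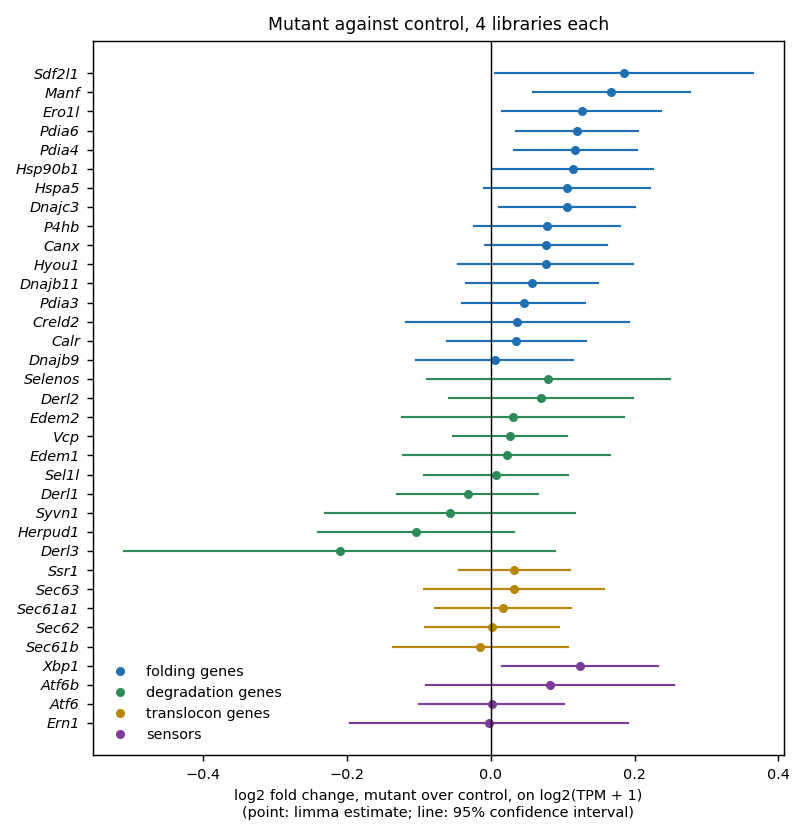
Log2 fold change of each member (mutant over control, limma on log2(TPM + 1)) with its 95% confidence interval, by class. All 16 folding genes lie to the right of 0, between 0.0057 and 0.19, while degradation genes spread from -0.21 to 0.080.

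The general chaperones bind unfolded chains. Hspa5 (chr2:34772090-34776529, plus strand; BiP, the master chaperone that also holds the sensors inactive) stood at 766, 675, 704 and 666 TPM in the controls and at 730, 726, 801 and 767 TPM in the mutants. Control replicate 1 reached the level of mutant replicate 4, and the other 3 controls lay below every mutant. The log2 fold change was 0.11 (SE 0.051, limma adjusted p of 0.841). Hsp90b1 (chr10:86690841-86705444, minus strand; GRP94, the HSP90 of the endoplasmic reticulum) held 775, 680, 714 and 713 TPM in control hearts and 732, 769, 828 and 792 TPM in the mutants. Control replicate 1 again lay within the mutant range, and the log2 fold change was 0.11 (SE 0.050, unadjusted p of 0.0454, adjusted p of 0.809). Calr (chr8:84842088-84846931, minus strand), the most abundant member and a lectin chaperone that binds glycoproteins, held 896, 796, 843 and 810 TPM in control hearts and 846, 830, 894 and 857 TPM in the mutants. Its highest value was in control replicate 1, and the log2 fold change was 0.036 (95% interval -0.061 to 0.13). Canx, the membrane-bound relative of Calr, averaged 319 ± 9.72 TPM in control hearts and 336 ± 13.6 TPM in mutant hearts (SD, n = 4 each). Hyou1, a large chaperone that exchanges the nucleotide of BiP, averaged 51.7 ± 2.13 and 54.6 ± 3.79 TPM, and neither gene passed the test (adjusted p of 0.841 and 0.894 in limma).

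Among the 5 disulfide enzymes the median log2 fold change was 0.12. Pdia6 (chr12:17266589-17284785, plus strand), a protein disulfide isomerase that also acts on IRE1, stood at 359, 327, 341 and 343 TPM in the controls and at 358, 366, 379 and 385 TPM in the mutants. The groups overlapped through 1 library each, control replicate 1 and mutant replicate 1. The log2 fold change was 0.12 (SE 0.038, unadjusted p of 0.0104, limma adjusted p of 0.780), a difference of 8.68%, and its 95% interval ran from 0.036 to 0.20 on the log2 scale. Pdia4 (chr6:47796141-47813512, minus strand), an isomerase found in chaperone complexes with BiP, showed the same arrangement, with 189, 181, 177 and 173 TPM in control hearts and 189, 203, 200 and 190 TPM in the mutants. Its log2 fold change was 0.12 (SE 0.038, unadjusted p of 0.0124, adjusted p of 0.780). Ero1l (chr14:45283087-45318572, minus strand), the oxidase that recharges the isomerases, held 42.6, 40.9, 37.8 and 42.5 TPM in control hearts and 42.2, 44.9, 46.5 and 45.6 TPM in the mutants. Here 3 mutants lay above every control, mutant replicate 1 lay below 2 of them, and the log2 fold change was 0.13 (SE 0.049, unadjusted p of 0.0297, adjusted p of 0.809). The other enzymes stood nearer to 0. P4hb, the founding isomerase and a subunit of collagen prolyl hydroxylase, averaged 349 ± 19.0 and 369 ± 14.8 TPM, and Pdia3, the partner of Calr and Canx, 478 ± 19.0 and 493 ± 15.8 TPM (SD, n = 4 each). Hspa5 shares bases with Rabepk on the other strand, which averaged 13.1 TPM, Pdia3 with Catsper2 (1.94 TPM) and Pdia4 with Mir704 on its own strand (30.0 TPM), and how such reads were assigned is not given.

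The third set of folding genes encodes partners of BiP and small secreted factors. Manf (chr9:106888753-106891938, minus strand), a secreted protein that binds BiP and protects stressed cells, had the smallest unadjusted p of all members. It stood at 224, 200, 201 and 197 TPM in the controls and at 220, 224, 241 and 239 TPM in the mutants. Control replicate 1 lay well above the other controls and within the mutant range, and all 4 mutants lay above the other 3 controls. The log2 fold change was 0.17 (SE 0.048, 95% interval 0.059 to 0.28, unadjusted p of 0.00660, limma adjusted p of 0.748). Sdf2l1 (chr16:17130138-17132383, minus strand), a subunit that keeps the BiP cofactor complex soluble, had the highest log2 fold change of the members at 0.19 (SE 0.080, unadjusted p of 0.0440, adjusted p of 0.809), and the widest spread among the folding genes. Its libraries held 40.5, 32.3, 36.1 and 35.2 TPM in control hearts and 36.9, 40.7, 46.1 and 40.7 TPM in the mutants. Dnajc3 (p58IPK; chr14:118937932-118981702, plus strand), a co-chaperone that also restrains PERK, held 31.7, 30.0, 30.3 and 31.0 TPM in control hearts and 34.7, 31.5, 33.7 and 32.9 TPM in the mutants. The overlap was 1 library, mutant replicate 2 just under control replicate 1, and the log2 fold change was 0.11 (SE 0.042, unadjusted p of 0.0315, adjusted p of 0.809). After scaling by the median of ratios, and after rescaling without mitochondrial and haemoglobin genes, Dnajc3 was the 1 member whose groups no longer overlapped, against 1.81% and 1.44% of all genes with higher mutant values. Dnajb11, a J-domain partner of BiP, averaged 109 ± 5.13 and 114 ± 3.48 TPM. Creld2 averaged 49.0 ± 2.81 and 50.4 ± 4.83 TPM, and Dnajb9, the J-domain protein through which BiP represses IRE1, 24.5 ± 1.17 and 24.6 ± 0.942 TPM (SD, n = 4 each). Creld2 and Dnajb9 were the 2 folding genes whose sign depended on a single library: without mutant replicate 1 the log2 fold change of Creld2 was -0.018, and without control replicate 1 or 2 or mutant replicate 1 or 4 that of Dnajb9 lay between -0.010 and -0.0068.

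The degradation genes showed no common direction, with 6 log2 fold changes above and 4 below 0. Herpud1 (chr8:94386429-94395371, plus strand), a membrane protein that organizes the retrotranslocation complex, had the smallest unadjusted p of the class. It stood at 34.0, 35.6, 32.1 and 35.1 TPM in the controls and at 34.4, 30.4, 33.5 and 29.0 TPM in the mutants. Mutant replicates 2 and 4 lay below every control and the other 2 lay within the control range, for a log2 fold change of -0.10 (SE 0.061, unadjusted p of 0.120, limma adjusted p of 0.858). Without mutant replicate 1 the value was -0.14 (unadjusted p of 0.0457, limma adjusted p of 0.739). Derl3 (chr10:75893398-75895941, plus strand), a derlin of the retrotranslocation channel, was the member with the lowest level and the widest interval, from -0.51 to 0.090 around -0.21. The value was -0.36 with a pseudocount of 0.1 and -0.12 without mutant replicate 1, and without mutant replicate 4 it was -0.31 (unadjusted p of 0.0314, limma adjusted p of 0.889). Its libraries held 1.64, 1.26, 1.43 and 1.49 TPM in control hearts and 0.757, 1.06, 1.13 and 1.62 TPM in the mutants. The related Derl1 and Derl2 had log2 fold changes of -0.032 and 0.070. Syvn1 (HRD1; chr19:6046576-6053718, plus strand), the ubiquitin ligase of the complex, averaged 22.6 ± 1.70 and 21.7 ± 2.04 TPM, and its partner Sel1l 41.0 ± 1.81 and 41.2 ± 1.62 TPM (SD, n = 4 each). Syvn1 shares bases with Mrpl49 on the other strand, which averaged 48.7 TPM, and Derl2 with Mis12, which averaged 23.8 TPM, and the strand setting of the counting is not given, so both values are uncertain.

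Vcp (chr4:42979964-43000507, minus strand), the ATPase that extracts substrates from the membrane, held 398, 377, 381 and 388 TPM in control hearts and 406, 375, 388 and 405 TPM in the mutants. The control values lay within the mutant range, and the 95% interval of its log2 fold change, -0.052 to 0.11, was the narrowest of the 10. Selenos, a selenoprotein that links Vcp to the derlins, averaged 43.6 ± 1.95 and 46.3 ± 5.05 TPM. Its mutant values were more spread than its control values, with the lowest library (39.1 TPM, mutant replicate 2) and the 3 highest all in the mutants. Without mutant replicate 2 the log2 fold change of Selenos was 0.16 (unadjusted p of 0.0121, limma adjusted p of 0.831), against 0.080 with all libraries. Edem1 and Edem2, which mark misfolded glycoproteins by trimming mannose, had log2 fold changes of 0.022 and 0.030. Over the class no interval reached above 0.25, so a gain of more than 18.8% lay outside the 95% interval of each degradation gene.

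The translocon genes had the narrowest range of the 4 classes, with log2 fold changes from -0.014 to 0.033 and every interval crossing 0. Sec61a1 (chr6:88503607-88518800, minus strand), the channel itself, stood at 152, 152, 141 and 146 TPM in the controls and at 160, 145, 150 and 144 TPM in the mutants. Sec61b, the small channel subunit, averaged 88.9 ± 4.99 and 88.0 ± 5.37 TPM. Ssr1 (chr13:37971401-37994208, minus strand), a subunit of the TRAP complex beside the channel, had the smallest unadjusted p of the class at 0.367 (limma adjusted p of 0.931). It held 63.3, 60.8, 58.2 and 59.9 TPM in control hearts and 62.0, 61.3, 62.6 and 61.8 TPM in the mutants, so the mutants lay inside the control range. Sec62 and Sec63, which assist import after translation, averaged 45.5 ± 1.79 and 45.5 ± 1.51 TPM, and 30.7 ± 1.73 and 31.5 ± 1.78 TPM (SD, n = 4 each). The highest upper bound in the class was 0.16 on the log2 scale, or 11.6%.

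Of the 4 genes in the sensor class, the factor Xbp1 alone had an unadjusted p below 0.05 in limma, where 2.65% of all genes had one with a higher mutant mean. Its difference from the sensor genes proper was not tested. Xbp1 (chr11:5520641-5525993, plus strand) encodes the factor that IRE1 activates by splicing, and total Xbp1 transcript is itself a target of ATF6. It stood at 66.5, 68.4, 67.1 and 63.5 TPM in the controls and at 78.1, 72.4, 72.7 and 66.9 TPM in the mutants. Mutant replicates 1 to 3 lay above every control and mutant replicate 4 lay within the control range. The log2 fold change was 0.12 (SE 0.048, 95% interval 0.016 to 0.23, unadjusted p of 0.0285, limma adjusted p of 0.809). Without a variance trend the unadjusted limma p was 0.0513. With 1 library left out it ran from 0.00500 to 0.0788. It lay above 0.05 without control replicate 1 or 4 or mutant replicate 1, 2 or 3. Gene-level TPM holds spliced and unspliced forms together, so splicing was not measured.

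Atf6 (chr1:170704457-170868585, minus strand) held 22.1, 23.6, 23.2 and 24.5 TPM in control hearts and 24.1, 23.4, 22.8 and 23.1 TPM in the mutants, with a log2 fold change of 0.0016 (95% interval -0.099 to 0.10). Its relative Atf6b, a weaker activator, held 41.5, 43.2, 37.7 and 45.0 TPM in control hearts and 47.0, 42.1, 49.1 and 39.5 TPM in the mutants. The mutant libraries of Atf6b included both values above and values inside the control range, and the log2 fold change was 0.082 (SE 0.077). Ern1 (chr11:106397620-106487796, minus strand), the IRE1 kinase and nuclease, held 5.81, 6.62, 5.61 and 6.15 TPM in control hearts and 6.97, 5.85, 5.96 and 5.41 TPM in the mutants. Both its highest and its lowest value lay in the mutants, and both group means were 6.05 TPM.

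The folding genes differed between libraries of the same genotype. Control replicate 1 was the highest control in 14 of 16 folding genes and control replicate 2 was the lowest of all 8 libraries in 11 of 16. Among the mutants, replicate 3 was highest in 9 of 16. Expressed as the median deviation from each gene's own mean, the folding genes stood at 0.032, -0.097, -0.068 and -0.049 in control replicates 1 to 4 and at 0.0044, 0.0092, 0.090 and 0.061 in mutant replicates 1 to 4 (log2). The degradation genes stood at 0.031, -0.010, -0.039 and -0.021 in the controls and at 0.051, -0.044, 0.0093 and -0.017 in the mutants, so control replicate 1 was the highest control there too. It was also the highest control for the translocon genes, with 0.040, -0.0097, -0.071 and 0.035 in control replicates 1 to 4. For the sensors it was not, with -0.054, 0.012, -0.068 and 0.044. Without control replicate 1, the groups did not overlap in 9 members (8 of the 16 folding genes and 1 translocon gene), against 3.7% of all genes: Hspa5, Hsp90b1, Pdia4, Pdia6, P4hb, Dnajc3, Sdf2l1, Manf and Ssr1, all with higher mutant values. Then 10 members had an unadjusted p below 0.05, against 2.97% of genes with a higher mutant mean, and the lowest adjusted p was 0.543, for Manf. This library was singled out after its values were seen. The count of 8 at an unadjusted p below 0.05 was 4 without control replicate 2, 3 or 4, 5 without mutant replicate 2 and 3 without mutant replicate 3. Over all genes, the share with an unadjusted p below 0.05 and a higher mutant mean ran from 2.03% to 2.97% with a library left out. Leaving out mutant replicate 1 freed 7 members of overlap, all with higher mutant values (Canx, Pdia4, Pdia6, Ero1l, Sdf2l1, Manf and Derl2), against 2.7% of all genes. Without mutant replicate 2 there were 2 such members, Dnajc3 and Selenos, against 3.53%. Without mutant replicate 4 there was 1 with higher values, Xbp1, against 3.29%, and 1 with lower values, Derl3, against 3.13%. No member was free of overlap without control replicate 2, 3 or 4 or without mutant replicate 3.

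**Figure D3:**
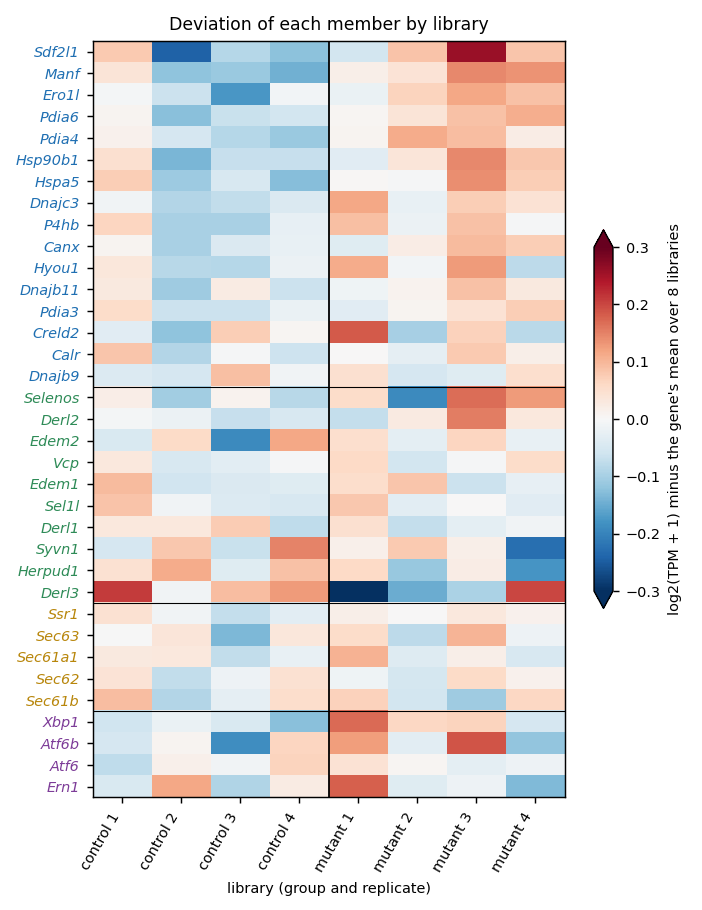
Deviation of log2(TPM + 1) from each gene's mean over the 8 libraries, with members in rows by class and libraries in columns. Control replicates 2 to 4 are low across most folding genes, while control replicate 1 and mutant replicate 3 are high. In the degradation rows control replicate 1 is also the highest control in 6 of 10 genes. Its median deviation there is 0.031, close to the 0.032 of the folding genes.

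Among the controls, control replicate 1 also stood at an edge of several marker lists, while in the ventricular, epicardial and neuron lists it lay inside the control range. Its 4 atrial markers summed to 4403 TPM, against 4029 to 4303 TPM in control replicates 2 to 4 and 4022 to 4305 TPM in the mutants. Its 5 valve and outflow mesenchyme markers, all of them detected, summed to 357 TPM, whereas control replicates 2 to 4 held 279 to 301 TPM and 273 to 322 TPM in the mutants. The sum of the 5 erythroid markers, also all detected, was 3195 TPM in this library, 3940 to 5392 TPM in control replicates 2 to 4 and 2992 to 4116 TPM in the mutants. For macrophages, 3 of 5 markers averaged at least 1 TPM, and the sum was 15.6 TPM in control replicate 1, 7.26 to 13.1 TPM in control replicates 2 to 4 and 4.20 to 7.88 TPM in the mutants. The part of atrial, mesenchyme and macrophage content in the chaperone values was not tested. With mitochondrial and haemoglobin genes left out and the rest rescaled, the median of the folding genes was 0.087, close to the 0.092 with TPM as deposited.

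Over the 8 libraries of both genotypes, 6 of the 15 other folding genes were correlated with Hspa5 after adjustment. Once the group means were subtracted, 0 passed, while the median Pearson r of the 15 was 0.73. That second test permutes within the groups, has few arrangements and could hardly pass after adjustment. The log2 level of Hspa5 was correlated with that of each of the other 34 members, with p-values adjusted over the 34. The median Pearson r was 0.80 for the 15 other folding genes, 0.11 for degradation genes, 0.24 for translocon genes and -0.10 for sensors, against a median of 0.0030 over all other genes tested. Manf had the highest Pearson correlation with Hspa5 (r = 0.943, exact permutation p of 0.00154, adjusted 0.0217; rho = 0.929, exact p of 0.00223, adjusted 0.0379). Hsp90b1 had the highest rank correlation (r = 0.931, exact permutation p of 0.00122, adjusted 0.0217; rho = 0.952, exact p of 0.00114, adjusted 0.0379). Calr, Sdf2l1, Dnajb11 and Pdia6 had r of 0.917, 0.915, 0.886 and 0.863 with adjusted exact permutation p of at most 0.0443, but their rho, between 0.833 and 0.881, did not pass after adjustment, at 0.0821 to 0.0871. Without mutant replicate 3 and control replicate 4, the libraries farthest from the median of Hspa5, r was 0.897 for Manf, 0.939 for Hsp90b1 and between 0.782 and 0.894 for the other 4.

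Not all folding genes took part in this. Dnajb9 had r = -0.037 (exact permutation p of 0.929, rho = 0.143, exact p of 0.752) and Creld2 r = 0.161 (exact permutation p of 0.701, rho = 0.167, exact p of 0.703). Atf6 ran opposite to Hspa5, with r = -0.715 (exact permutation p of 0.0439, adjusted 0.114) and rho = -0.762 (exact p of 0.0368, adjusted 0.104), neither past the threshold after adjustment. Without the same 2 libraries its r was -0.560. After the group means were subtracted, r was 0.951 for Manf, 0.964 for Calr, 0.888 for Hsp90b1 and -0.916 for Atf6. By exact permutation within the groups, over 34 members, the adjusted p was 0.0787 for Manf, Calr and Atf6 and 0.103 for Hsp90b1. No correlation passed on this basis. Permuting within such small groups gives so few arrangements that a single correlation could not pass after adjustment over 34 members, whatever its r. The lack of a pass therefore does not tell whether members vary together within the groups. Each group alone has too few libraries for a correlation. All values of a library share its TPM total, so these relations are not independent of library composition.

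**Figure D4:**
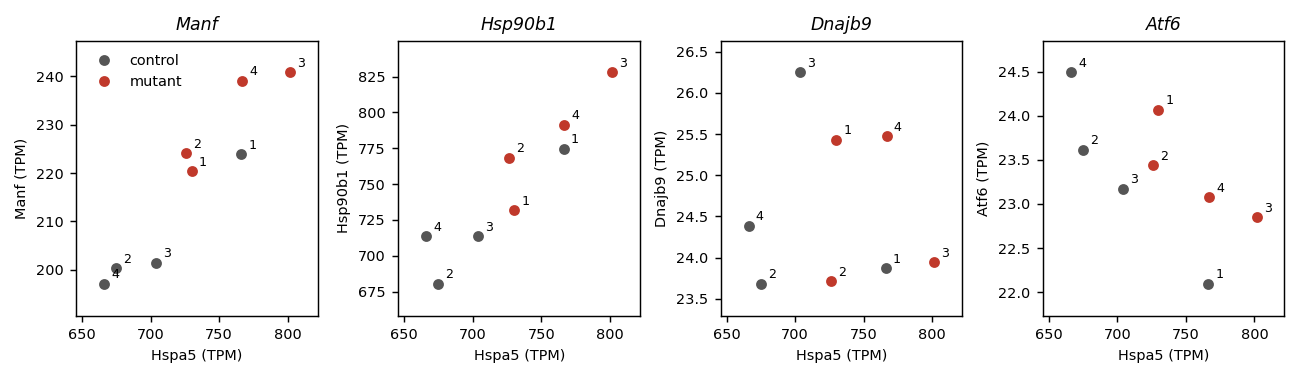
TPM of Manf, Hsp90b1, Dnajb9 and Atf6 against TPM of Hspa5, with one point per library, coloured by group and numbered by replicate. Manf and Hsp90b1 climb with Hspa5 (r of 0.943 and 0.931 on the log2 scale), Dnajb9 shows no trend, and Atf6 declines.

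A wider list of 69 other genes of the organelle, covering further folding enzymes, glycan processing, degradation, signal peptidase, oligosaccharyltransferase, transport and the PERK branch, served for comparison. Of these, 67 were tested, all but Ern2 and Clgn, and 0 passed the adjusted threshold in limma (lowest adjusted p of 0.809). Their median log2 fold change was 0.017, with 45 above and 22 below 0, where 48.2% of all genes lay above 0. At an unadjusted p below 0.05 there were 3 of 67 with a higher mutant mean (Rpn1, Srpr and Tram1), against 2.65% of all genes, and 1 of 67 with a lower one (Sdf2), against 3.45%, so both counts are near the background. Rpn1, a subunit of the oligosaccharyltransferase, averaged 94.9 ± 2.68 TPM in control hearts and 101 ± 3.53 TPM in mutant hearts (SD, n = 4 each). Srpr, the receptor for signal recognition particles, averaged 73.8 ± 2.67 and 78.9 ± 2.76 TPM, and Tram1, a neighbour of the channel, 63.7 ± 1.55 and 68.0 ± 3.10 TPM. Their log2 fold changes were 0.089, 0.094 and 0.092.

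Sdf2, the close relative of Sdf2l1, was the 1 gene of the 67 whose groups did not overlap, against 1.63% of all genes with higher and 2.05% with lower mutant values. It held 42.0, 43.2, 46.3 and 42.0 TPM in control hearts and 40.7, 42.0, 39.2 and 39.2 TPM in the mutants. The lowest control, at 41.96 TPM, stood only just above the highest mutant, at 41.95 TPM. Its log2 fold change was -0.10 (SE 0.044, unadjusted p of 0.0416, limma adjusted p of 0.809), of opposite sign to the 0.19 of Sdf2l1. The next genes by unadjusted p were Tmx1, a membrane-bound thioredoxin-like enzyme, and Calu, a calcium-binding protein of the lumen. Tmx1 averaged 64.6 ± 1.89 and 68.7 ± 2.76 TPM and Calu 437 ± 10.2 and 459 ± 14.1 TPM (SD, n = 4 each), with adjusted p of 0.821 and 0.840.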

How the data were processed

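The authors deposited 1 table of TPM values with a column per library for 8 libraries. Per the submitters' processing notes the tools include Trim Galore 0.6.7, HISAT2 2.2.1, StringTie 2.2.1, featureCounts and DESeq2, and the builds GRCm38 and mm10, with no role or order given. Strand setting and treatment of multiply mapping reads are not given in the sources used here. The labels name 2 different extraction and library protocols (one for cortical neurons). The start and end of all 35 members were identical in RefSeq GRCm38.p6.

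The 15545 genes that reached 1 TPM in 4 or more libraries were compared as log2(TPM + 1) in limma 3.58.1 (R 4.3.3), with variances that follow mean expression, no covariate, two-sided p-values and Benjamini-Hochberg adjustment at 0.05. This scale shrinks the fold changes of low genes. The fit was also run on simulated data with independent noise, at changes larger than those of nearly all members. That simulation does not show how often changes as small as theirs would pass. Correlations were tested two-sided by exact permutation of all pairings (Python 3.11.15, numpy 2.4.6). Members, gene lists and tests were chosen with earlier results of these data known.

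Per-library values are given for members with an unadjusted p below 0.05, the most abundant and lowest-p member of each class and all sensors. Those of Hspa5 and Derl3 were added after their values were seen. Up to 6 genes of the wider list are named by smallest p. Alternatives were a pseudocount of 0.1, no filter, 2 scalings, no variance trend, a replicate block and each library left out. The limma p-values set each difference against the spread among these libraries, drawn toward the trend over all genes tested. Whether that is a spread between single embryos is not known.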

Additional observations from a re-analysis of the deposited data

Results flagged for a closer look

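Each of the 35 members and Atf4 was examined in both groups, 72 groups of 4 libraries in all, for a highest or lowest value that stood far from the other 3 relative to their spread. Dixon's criterion was met in 2 groups, and chance gives about 3.6 at its 5% rate, or 1 group in 20. Both were in control replicate 1. Manf stood at 223.9 TPM there, against 197 to 201 TPM in the other controls. Edem1 stood at 9.66 TPM, against 8.60 to 8.73 TPM. Without this library the log2 fold change of Manf was 0.21 (limma adjusted p of 0.543) and that of Edem1 was 0.057 (adjusted p of 0.952).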

How the results depend on the processing

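No member passed the adjusted threshold in any of the 14 alternatives, in which the lowest adjusted p of a member ran from 0.543 to 0.946. Of the 16 folding genes, 16 had a log2 fold change above 0 in each of the 6 alternatives that kept all libraries, and 14 to 16 when 1 library was left out, with a class median of 0.070 to 0.117. Without control replicate 3 the medians of the degradation and translocon genes were -0.0084 and -0.0046, and without mutant replicate 1 that of the degradation genes was -0.0050. The count of 8 members at an unadjusted p below 0.05 was 5 without a variance trend and 5 with the replicate block, and 3 to 10 with a library left out. Over all genes, the 6 adjusted calls were 0 without a filter, without a variance trend and with the block. Same-numbered libraries showed little shared deviation (r of -0.082 to 0.035). For replicate 2 the same-number r was the higher, at 0.035 against at most 0.020 with another number. Values near 0 cannot exclude a shared litter or batch, and what the numbers stand for is not given. The members without overlap numbered 1 under both scalings (with higher mutant values, as in 1.81% and 1.44% of all genes) and 0 to 9 with a library left out, where 2.44% to 3.7% of all genes had higher and 3% to 4.71% lower mutant values without overlap.

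Signs near 0 depended on single libraries. The log2 fold change with a library left out ran from -0.010 to 0.037 for Dnajb9, -0.018 to 0.076 for Creld2, -0.018 to 0.037 for Sel1l, -0.093 to 0.0094 for Syvn1, -0.0018 to 0.057 for Edem1, -0.028 to 0.074 for Edem2, -0.015 to 0.036 for Sec61a1, -0.046 to 0.019 for Sec61b, -0.022 to 0.020 for Sec62, -0.0073 to 0.064 for Sec63, -0.023 to 0.024 for Atf6 and -0.063 to 0.041 for Ern1. Rescaled without mitochondrial and haemoglobin genes, Sec62 stood at -0.0032 and Atf6 at -0.0034. With group means subtracted, the correlation with Hspa5 changed sign for Derl3 (0.48), Xbp1 (-0.13) and Atf6b (-0.056). The cause was not tested. TPM keeps no depth, so no counting error can be given.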
